A study of Mus musculus with 5 samples.

Results

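Eosinophils are granulocytes of allergy and of defence against parasites, and they carry dense granules packed with basic proteins. Their genes encode 3 kinds of product that are described here: granule proteins (Epx, Prg2 and Prg3), small ribonucleases of the eosinophil-associated ribonuclease (Ear) family (Ear1, Ear2, Ear6 and Ear10), and surface receptors (Il5ra, Siglecf and Ccr3). In bone marrow, granule genes are switched on in committed eosinophil progenitors before the cells look like eosinophils. IL-5 acting through its receptor then drives their growth, while transcription factors of the GATA and C/EBP families together with PU.1 act on granule gene promoters. These 10 genes, of 52550 in the count table, were selected by name with earlier results of this same comparison known. Their difference between the groups is therefore given as a description. Where the call from the fit over all genes is mentioned for them, it is not independent evidence of a difference.

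The libraries came from cKit+Sca1- cells without lineage markers (KL cells), a sorted bone marrow fraction rich in committed myeloid progenitors. All mice were male, carried the tamoxifen-inducible Cre transgene scl-Cre-ERT (HSC-SCL-Cre-ERT in the study), in which a Tal1 (Scl) stem cell enhancer drives Cre, and received 1 mg of tamoxifen a day for 5 days at an age of 3 to 6 months. The BcorΔE9-10 group (Bcorfl/y, n = 3) loses exons 9 and 10 of the X-linked corepressor gene Bcor, and the BcorWT group (Bcorwt/y, n = 2) keeps an intact gene. Cells were taken 20 weeks after tamoxifen, and RNA was read from the transcript end by QuantSeq 3′ sequencing. The labels do not say whether each library is a separate mouse, so p-values measure only the spread between these 5 samples.

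Depth ran from 5998924 to 8303999 counts, and BcorΔE9-10 library 2 was the smallest. Levels below are in CPM, counts divided by the library total and multiplied by 1e+06, after TMM scaling, a correction for differences in library makeup, and since a 3′ library gives about 1 read position per transcript they were not divided by gene length. Each fold change is the log2 ratio of BcorΔE9-10 to BcorWT fitted by limma-voom, with its standard error (SE). With sorted bulk RNA, fewer cells of a type and less RNA per cell cannot be told apart. Reads at the transcript end lie outside the removed exons of Bcor, so they do not show the deletion itself. The study lists Bcor among the transcription factors that differed in BcorΔE9-10 KL cells. Its level was not used here as a check of the labels.

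The Ear genes are near-copies of each other, which bears on every Ear value that follows. On mouse build mm10 they lie on chromosome 14, with Ear1 at 43818765 to 43875517 (minus strand), Ear10 at 43922720 to 43923559 (minus strand), Ear2 at 44102654 to 44103534 (plus strand) and Ear6 further along at 51853699 to 51854643 (plus strand). They encode precursors of 155 residues (Ear1 and Ear6) or 156 residues (Ear2 and Ear10). Coding sequences were 95.7% identical between Ear1 and Ear2, 97.0% between Ear2 and Ear10, and 87.4% between Ear1 and Ear6. The last 30 coding bases were the same in all 4 genes (chr14:44103328-44103357 in Ear2), and are shown because a read that covers them alone cannot be given to one gene.
Shared coding end of Ear1, Ear2, Ear6 and Ear10: gttccagttcacttggatgggacattttag
The most variable 30 bases among the last 120 coding bases lie 39 bases before the end of the coding sequence. They are shown because they hold the letters by which a read can be told apart, and capitals mark the 10 positions at which the 4 genes are not all the same.
Ear1 (chr14:43818981-43819010, minus strand): GaCcccagaACtCcaCAggaCAgtcccatG
Ear2 (chr14:44103289-44103318, plus strand): AaCcccagaACtCcaCAggaCAgtcccatG
Ear10 (chr14:43922937-43922966, minus strand): GaCcccagaACtCcaCAggaCAgtcccatG
Ear6 (chr14:51854397-51854426, plus strand): GaGcccagaGTtGcaTGggaTTgtcccatC

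Ear1 and Ear10 were identical over this stretch, and Ear6 stood apart from the other 3. Over the last 120 coding bases Ear1 differed from Ear2 at 2 positions, from Ear10 at 3 and from Ear6 at 14. The last 300 transcript bases, where QuantSeq reads fall, differed at 4 of 300 positions between Ear1 and Ear2. Of the 30-base words in that window, 82.7% in Ear1, 60.5% in Ear2, 39.5% in Ear10 and 17.7% in Ear6 also occurred in another gene. Reads were 75 bases long, so these shares are not shares of reads. A read can hold a letter that sets a copy apart where a 30-base word holds none. Ear1 and Ear2 held 59.8% of their words in common. The granule genes, Siglecf and Ccr3 shared none of their words with another gene, and Il5ra shared 18.1% with 51 other genes.

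**Figure D1:**
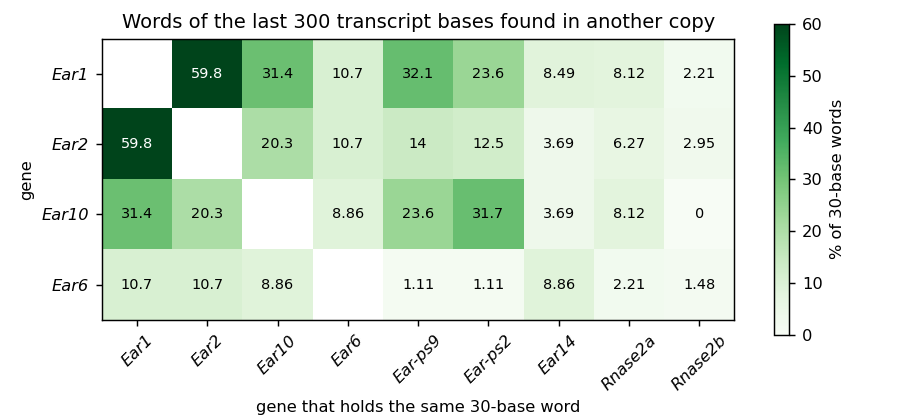
Percent of the 30-base words in the last 300 transcript bases of each Ear gene (rows) that also occur in another Ear or Rnase2 gene (columns). Ear1 and Ear2 share most, at 59.8%, and Ear6 shares at most 10.7% with any one gene.

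The genes for the granule proteins were lower in every BcorΔE9-10 library than in both BcorWT libraries. Prg2 was the most abundant member by far, Prg3 kept close to a fixed ratio with it, and Epx varied most among the BcorΔE9-10 libraries.

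Prg2 encodes major basic protein, which forms the crystalline core of the eosinophil granule. It lies on chromosome 2 at 84980461 to 84983632 (plus strand, ENSMUSG00000027073). Prg2 had 5756 and 4661 counts in the BcorWT libraries and 3289, 1430 and 2632 in the BcorΔE9-10 libraries. The lowest BcorWT library stayed above the highest BcorΔE9-10 library, also after scaling for depth. Its level was 754 ± 89.6 CPM (SD, n = 2) in BcorWT and 310 ± 77.7 CPM (SD, n = 3) in BcorΔE9-10, and the log2 fold change was -1.30 (SE 0.150). Prg2 ranked 293 of the 11766 genes tested by mean CPM and took 80.5% to 85.7% of the counts of the 10 genes in each library.

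Prg3 encodes a homologue of major basic protein that is also stored in granules, and its gene is the downstream neighbour of Prg2 at 84988215 to 84993886 (plus strand, ENSMUSG00000027072). Their coding sequences were 67.6% identical. Prg3 had 133 and 105 counts in BcorWT and 73, 34 and 70 counts in BcorΔE9-10. The groups did not overlap. Its level was below that of Prg2, with 17.2 ± 2.35 CPM in BcorWT (SD, n = 2) and 7.45 ± 1.66 CPM in BcorΔE9-10 (SD, n = 3), and its log2 fold change was -1.19 (SE 0.250). The count ratio of Prg2 to Prg3 was 43.3 and 44.4 in BcorWT and 45.1, 42.1 and 37.6 in BcorΔE9-10, so the groups overlapped in this ratio.

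Epx encodes eosinophil peroxidase, the haem enzyme of the granule matrix, and lies on chromosome 11 at 87864000 to 87875536 (minus strand, ENSMUSG00000052234). Epx had 118 and 85 counts in the BcorWT libraries and 65, 16 and 34 counts in the BcorΔE9-10 libraries. The libraries of the groups did not overlap, but the 3 BcorΔE9-10 libraries were spread widely. The mean was 14.7 ± 2.94 CPM in BcorWT (SD, n = 2) and 4.76 ± 2.62 CPM in BcorΔE9-10 (SD, n = 3), and the log2 fold change was -1.67 (SE 0.341). The coefficient of variation among BcorΔE9-10 libraries was 55.2% for Epx, 25.1% for Prg2 and 22.3% for Prg3. The count ratio of Prg2 to Epx was 48.8 and 54.8 in BcorWT and 50.6, 89.4 and 77.4 in BcorΔE9-10, where the first library resembled the BcorWT libraries.

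All 3 granule genes had the same order of BcorΔE9-10 libraries in CPM, highest in library 1 and lowest in library 2. Library 2 was also the smallest. With all libraries drawn down to its size, the log2 fold changes were -1.70 for Epx, -1.31 for Prg2 and -1.14 for Prg3.

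The Ear genes also stood lower in every BcorΔE9-10 library than in both BcorWT libraries, Ear6 by most and Ear2 by least. Ear ribonucleases are the mouse counterparts of human eosinophil cationic protein and eosinophil-derived neurotoxin.

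Ear2 (ENSMUSG00000072596) held the most counts of the Ear genes, with 490 and 358 counts in BcorWT and 205, 153 and 226 counts in BcorΔE9-10. A smaller part of its end words was shared than for Ear1, so the order of the copies may depend on which reads could be placed. Scaled for depth, the BcorΔE9-10 libraries lay close together at 24.2, 25.0 and 26.4 CPM, and the BcorWT libraries lay well above at 69.6 and 53.0 CPM. The means were 25.2 ± 1.11 CPM in BcorΔE9-10 (SD, n = 3) and 61.3 ± 11.7 CPM in BcorWT (SD, n = 2), and the log2 fold change was -1.27 (SE 0.163). Its interval overlaps the predicted gene Gm49101 on the other strand, and whether counting used the strand is not given in the sources used here.

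Ear1 (ENSMUSG00000072601) had 267 and 272 counts in BcorWT and 67, 56 and 103 counts in BcorΔE9-10. The groups were further apart than for Ear2. The mean was 39.1 ± 1.69 CPM in BcorWT (SD, n = 2) and 9.70 ± 2.12 CPM in BcorΔE9-10 (SD, n = 3), and the log2 fold change was -2.02 (SE 0.207). Its annotated interval of 56.75 kb overlaps the pseudogenes Ear-ps12 and Ear-ps9 on the same strand, and AC154806.1 and Ang-ps2 on the other strand. The BcorΔE9-10 libraries ordered differently here than for the granule genes, with library 3 highest and library 1 lowest.

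Ear6 (ENSMUSG00000062148), whose end differs most from those of the other copies, had 105 and 81 counts in BcorWT and 14, 11 and 22 counts in BcorΔE9-10. It had the lowest log2 fold change of the 8 genes in the fit. The mean was 13.5 ± 2.06 CPM in BcorWT (SD, n = 2) and 2.01 ± 0.494 CPM in BcorΔE9-10 (SD, n = 3), a BcorWT mean 6.70 times the BcorΔE9-10 mean. The log2 fold change of -2.71 (SE 0.375) was the 11th lowest of the 11766 genes tested.

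Ear10 (ENSMUSG00000090166) was near the limit of detection, with 11 and 10 counts in BcorWT and 8, 3 and 1 counts in BcorΔE9-10. It entered the fit only through its BcorWT counts. The log2 fold change was -1.81 (SE 0.828), and it was -1.03 without BcorΔE9-10 library 3.

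**Figure D2:**
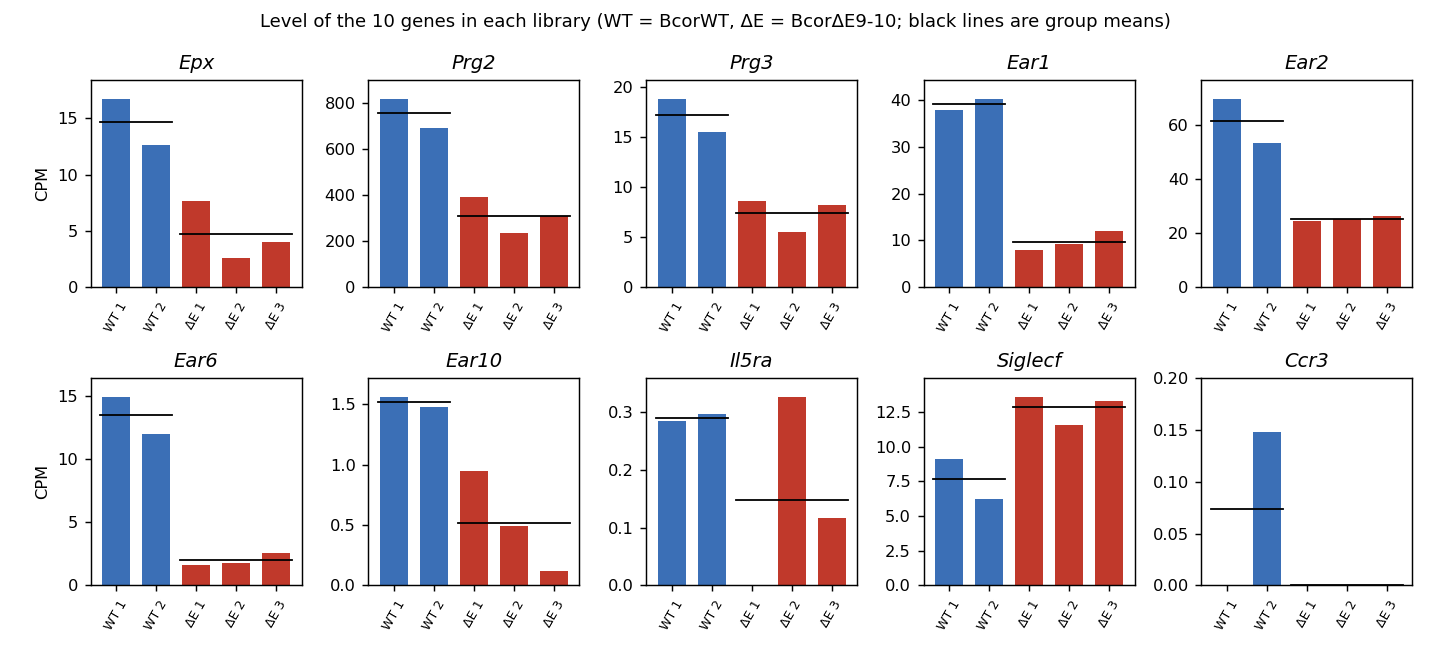
Level of each of the 10 genes in CPM (linear axis, own scale per panel) in the 2 BcorWT (WT) and 3 BcorΔE9-10 (ΔE) libraries, with a black line at each group mean. Granule and Ear genes are lower in each ΔE library than in either WT library, Siglecf is higher in each, and Il5ra and Ccr3 never exceed 2 counts.

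Because a read from one Ear copy can be given to another, all Ear and Rnase2 copies with a row under those names in the count table were also summed to 1 value per library. Reads that fit several copies may instead have been left out of the counts, and a sum does not bring these back. The annotated pseudogene Ear-ps1, which shares a few end words with each Ear member, has no row there and is not in the sum. Gm49245, which shares 14 end words with Ear6 and 7 with each of Ear1, Ear2 and Ear10, goes by another name and is not in the sum either. The sum was 890 and 731 counts in BcorWT and 299, 223 and 355 counts in BcorΔE9-10. The groups again did not overlap. It came to 117 ± 12.8 CPM in BcorWT (SD, n = 2) and 37.7 ± 3.29 CPM in BcorΔE9-10 (SD, n = 3), and the log2 fold change was -1.63 (SE 0.139), which stayed between -1.74 and -1.53 when any 1 library was left out. The 12 copies of the table that are not members, 9 of them pseudogenes, held 35 counts over all libraries beside 2463 in the 4 members. Of these 35, Ear-ps9 held 21 and Ear-ps2 held 13.

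The makeup of the Ear counts also differed between the groups. Ear2 took 55.1% and 49.0% of them in BcorWT and 68.6%, 68.6% and 63.7% in BcorΔE9-10, without overlap. Ear6 took 11.8% and 11.1% in BcorWT and 4.68%, 4.93% and 6.20% in BcorΔE9-10. Shares of Ear1 were 30% and 37.2% against 22.4%, 25.1% and 29.0%. These shares come from the same counts as the fold changes and add no separate evidence.

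**Figure D3:**
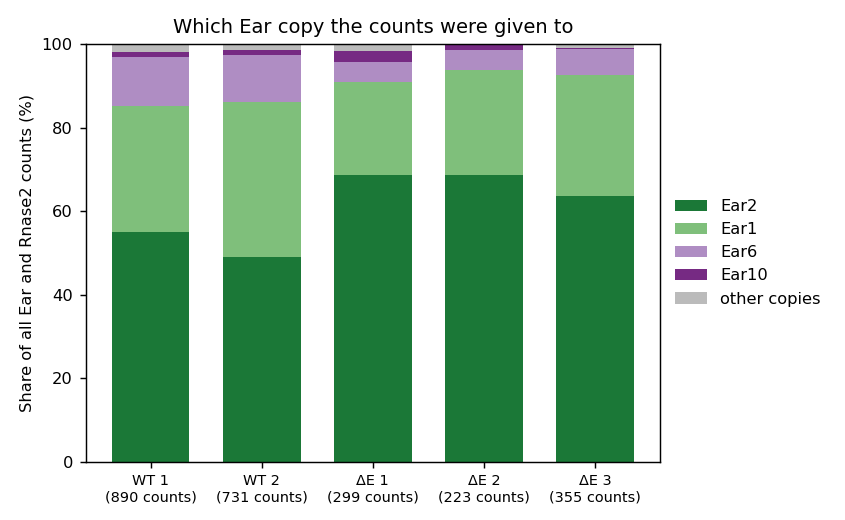
Share (%) of all Ear and Rnase2 counts given to each copy in the 2 BcorWT (WT) and 3 BcorΔE9-10 (ΔE) libraries, with the summed count under each bar. Ear2 holds 49.0% to 55.1% in WT and 63.7% to 68.6% in ΔE, and Ear6 holds a smaller share in ΔE.

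Of the surface receptors, only Siglecf had enough counts to be compared, and it was higher in the BcorΔE9-10 libraries. Siglecf encodes a sialic-acid-binding lectin that marks eosinophils and alveolar macrophages in mice, and lies on chromosome 7 at 43351341 to 43359531 (plus strand, ENSMUSG00000039013). Siglecf had 64 and 42 counts in BcorWT and 115, 71 and 114 counts in BcorΔE9-10. In CPM each BcorΔE9-10 library was above both BcorWT libraries, with 12.8 ± 1.09 CPM in BcorΔE9-10 (SD, n = 3) and 7.66 ± 2.03 CPM in BcorWT (SD, n = 2). Its log2 fold change was 0.77 (SE 0.269), which did not pass the threshold used over all genes. It was 0.51 without BcorWT library 2 and 0.50 under the replicate block with correction for GC content, and its last 300 bases held 33.3% GC, the lowest of the 10 genes.

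Il5ra encodes the IL-5-binding chain of the IL-5 receptor and lies on chromosome 6 at 106710357 to 106749037 (minus strand, ENSMUSG00000005364). It had 2 and 2 counts in BcorWT and 0, 2 and 1 in BcorΔE9-10. Ccr3, the receptor for eotaxins, lies on chromosome 9 at 124021972 to 124031689 (plus strand, ENSMUSG00000035448) and had 0 and 1 counts in BcorWT and none in BcorΔE9-10. Both stayed under 3 counts, the limit that a count of 0 allows, in all 5 libraries, so no difference was detectable at this depth. Il5ra and Ccr3, which mark committed and mature eosinophils, were thus at or near 0 in libraries in which 6 granule and Ear genes had 11 counts or more.

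Of the 10 genes, 8 had enough counts for the fit. Of these, 6 (Epx, Prg2, Prg3, Ear1, Ear2 and Ear6) had a limma adjusted p-value under 0.05 and were lower, beside 4.09% of all 11766 genes tested, and 0 were higher, beside 6.02% (1 at an unadjusted p-value under 0.05, and 0 by edgeR and by DESeq2). All 3 BcorΔE9-10 libraries lay below both BcorWT libraries in 7 of the 8, beside 20.3% of all genes, and above both in 1, Siglecf, beside 22.6%. The genes were chosen by this contrast, so nothing is read from these counts. The same 6 genes passed this threshold, lower, under all 16 alternative settings.

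**Figure D4:**
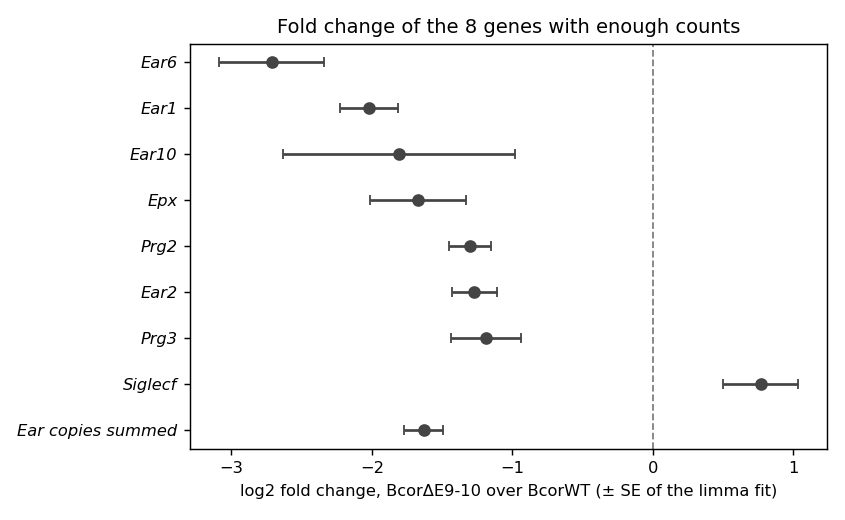
Log2 fold change of BcorΔE9-10 over BcorWT with its standard error from the limma fit for the 8 genes with enough counts and for the summed Ear copies. Values run from -2.71 for Ear6 to -1.19 for Prg3, and only Siglecf lies above 0, at 0.77.

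The order of levels differed between the groups mainly through Siglecf. In BcorWT, Prg2 was followed by Ear2, Ear1, Prg3, Epx, Ear6, Siglecf and Ear10. Libraries of Prg3 and Epx overlapped, as did those of Epx and Ear6. Within each BcorWT library, Prg3 was nevertheless above Epx and Epx above Ear6. Whether such neighbours differed was not tested. In BcorΔE9-10 the order was Prg2, Ear2, Siglecf, Ear1, Prg3, Epx, Ear6 and Ear10, with overlap between Siglecf and Ear1, between Ear1 and Prg3, and between Prg3 and Epx. Within each BcorΔE9-10 library, Siglecf was above Ear1 and Prg3 above Epx. Ear1 was below Prg3 in library 1 and above it in libraries 2 and 3. The lowest Epx library (2.61 CPM) was just above the highest Ear6 library (2.57 CPM).

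The BcorWT libraries themselves differed. BcorWT library 1 was above library 2 by 0.41 for Epx, 0.24 for Prg2, 0.28 for Prg3, 0.39 for Ear2, 0.31 for Ear6 and 0.55 for Siglecf on the log2 scale, while Ear1 differed by -0.09. The median absolute difference of all genes was 0.28, above the gaps of Prg2, Prg3 and Ear1 and below those of Epx, Ear2, Ear6 and Siglecf.

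Promoter sequences, the 250 bases before the RefSeq start on build GRCm38.p6, were found for 9 of the 10 genes. They were searched on both strands for GATA sites (the letters AGATAA or the letters AGATAG, and likewise the letters TGATAA or the letters TGATAG), for C/EBP sites (TTNCNNAA) and for the PU.1 core (GAGGAA). Those of Epx, Prg3 and Ear2 are shown because they stand for a granule gene without a match, a granule gene with GATA and C/EBP matches, and the Ear gene with the most counts. Capitals mark the matches.
Epx (chr11:87875537-87875786, minus strand): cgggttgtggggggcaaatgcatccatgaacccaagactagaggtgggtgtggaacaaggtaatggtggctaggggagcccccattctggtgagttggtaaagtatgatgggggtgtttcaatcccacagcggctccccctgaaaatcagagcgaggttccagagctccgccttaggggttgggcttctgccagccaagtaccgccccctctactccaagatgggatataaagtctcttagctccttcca
Prg3 (chr2:84987965-84988214, plus strand): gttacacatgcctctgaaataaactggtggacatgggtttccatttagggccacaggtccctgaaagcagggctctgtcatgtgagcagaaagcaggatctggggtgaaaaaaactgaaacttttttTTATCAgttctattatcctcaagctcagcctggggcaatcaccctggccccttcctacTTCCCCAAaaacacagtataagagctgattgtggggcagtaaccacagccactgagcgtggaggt
Ear2 (chr14:44102404-44102653, plus strand): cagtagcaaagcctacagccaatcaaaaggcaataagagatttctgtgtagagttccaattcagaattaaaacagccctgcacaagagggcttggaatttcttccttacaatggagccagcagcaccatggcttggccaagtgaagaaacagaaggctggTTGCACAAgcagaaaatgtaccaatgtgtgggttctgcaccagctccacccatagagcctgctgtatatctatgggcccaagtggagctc

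A C/EBP match was present in 7 of the 9 promoters, beside 36.8% of all 32851 promoters of the same length. It began 92, 90, 112 and 94 bases before the start in Ear1, Ear2, Ear6 and Ear10, and 65 bases before it in Prg3. The Ear promoters are copies (Ear1 and Ear2 were the same at 97.6% of aligned positions and gaps), so their 4 matches are not independent. GATA matches were present in Prg3, Il5ra and Ccr3, 3 of 9 beside 26.5% of all promoters. The PU.1 core was present in Siglecf and Ccr3, 2 of 9 beside 23.3%. A match is only a run of letters, and for Ear1 and Ear6 the RefSeq start lies inside the interval used for counting.

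Other genes of the eosinophil program were read from lists written with earlier results known. Each count of calls stands beside all 11766 genes tested, of which 4.09% were lower and 6.02% higher. Whether a list differed from these shares was not tested. Of 15 genes for the IL-5 receptor chain and its signalling, all tested, 1 was lower and 0 were higher (2 at an unadjusted p-value under 0.05, and 0 by edgeR and by DESeq2), with a median log2 fold change of -0.22 beside 0.00434 over all genes tested. The one that fell was Csf2rb, the signalling chain shared by the receptors for IL-5, IL-3 and GM-CSF. Its close copy Csf2rb2, named after its values were seen, was counted as a gene of its own, with 17 to 44 counts a library, so reads of the pair may not all be given to the right copy. Csf2rb had 893 and 812 counts in BcorWT and 557, 410 and 639 in BcorΔE9-10, with a fitted log2 change of -0.84, standard error 0.123 and limma adjusted p = 0.000506. The kinases Jak1 and Lyn and the receptor adaptor Sdcbp (syntenin) did not pass the test, at log2 fold changes of -0.22, -0.22 and -0.09.

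Of 14 transcription factors linked to the eosinophil lineage, 2 rose and 1 fell, with a median of -0.07. At an unadjusted limma p-value under 0.05, 4 were higher and 3 lower. Cebpb, a C/EBP factor of myeloid cells, had 145 and 162 counts in BcorWT and 366, 440 and 479 in BcorΔE9-10 (log2 fold change 1.31, SE 0.217, limma adjusted p = 0.00128). Gata2, a GATA factor of stem cells, mast cells and eosinophil progenitors, had 82 and 69 counts against 202, 155 and 171 (log2 fold change 1.05, SE 0.226, limma adjusted p = 0.00726). Both were higher in each BcorΔE9-10 library, the opposite direction to the granule genes. Other GATA and C/EBP factors of the list had negative log2 fold changes and were not called. These were Gata1 at -1.09 (SE 0.635, with 4 to 19 counts a library), Cebpa at -0.34 (SE 0.150) and Cebpe at -0.20 (SE 0.122), named after their values were seen. Of the 14 factors, 8 had a negative log2 fold change and 6 a positive one. Spi1, which encodes PU.1, was lower, with a fitted log2 change of -0.47, standard error 0.114 and limma adjusted p = 0.0154. This call was lost when BcorWT library 1 or BcorΔE9-10 library 1 was left out (-0.40 and -0.47), with total counts as scaling (-0.33) and with GC correction (-0.37). Id2, an inhibitor of E proteins, had a log2 fold change of -0.18 and was not called.

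Related families gave few other calls. Among haem peroxidases, Mpo, the neutrophil counterpart of Epx, had 36499 and 35726 counts in BcorWT and 46819, 26303 and 42659 in BcorΔE9-10, with a fitted log2 change of -0.09, standard error 0.0935 and limma adjusted p = 0.593, and Lpo, named after this was seen, had no count. Of 7 other genes known from eosinophils, 2 could be tested and 0 were called by limma, edgeR or DESeq2, with 1 at an unadjusted p-value under 0.05. These were Il1rl1, the IL-33 receptor, at a log2 fold change of -1.20 (SE 0.505) and the lipoxygenase Alox15 at -1.33 (SE 0.676). Of 7 other Siglec family genes, 3 were tested and 2 were lower, and edgeR and DESeq2 each called the 3 lower. Siglece fell by 1.20 on the log2 scale, with standard error 0.222 and limma adjusted p = 0.00266, in a direction opposite to that of Siglecf, and Siglecg fell by 0.57, with standard error 0.164 and limma adjusted p = 0.0364. The call of Siglecg was lost in 7 of the 16 alternatives: with total counts as scaling, with GC correction, with sample quality weights and on leaving out either BcorWT library or BcorΔE9-10 library 2 or 3. Of 11 chemokine receptors and ligands, 6 were tested and 0 were called by limma, edgeR or DESeq2, with 1 at an unadjusted p-value under 0.05. This was Ccr2, the receptor of inflammatory monocytes, at a log2 fold change of -0.92 (SE 0.314).

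Genes of other cell types moved in the same comparison, and their counts of calls stand beside the same 4.09% lower and 6.02% higher over all genes. Of 15 basophil and mast cell markers, 6 were tested and 4 were lower, with a median of -0.98, and the summed level was 327 to 435 CPM in BcorΔE9-10 and 592 to 766 CPM in BcorWT. Prss34, a basophil protease, had 1519 and 961 counts in BcorWT and 636, 401 and 706 in BcorΔE9-10 (log2 fold change -1.24, SE 0.161, limma adjusted p = 0.00017). Mcpt8, the defining basophil protease, fell by 1.08, with standard error 0.174 and limma adjusted p = 0.00111. Cpa3 fell by 0.87 and Hdc, which makes histamine, by 0.57. The call of Cpa3 was lost without BcorWT library 1 (-0.35) and without BcorΔE9-10 library 1 or 3, and that of Hdc without BcorWT library 1 (-0.54) and with total counts as scaling (-0.42). Without BcorWT library 2, Cpa3 was at -1.39. The mast cell proteases Mcpt1, Mcpt2, Mcpt4, Tpsab1 and Tpsb2 had no count in any library, and were named after this was seen. The part of basophils in the levels of the eosinophil genes was not tested.

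Of 12 markers of maturing neutrophils, all tested, 7 were lower with a median of -0.62, and their summed level was 149889 to 173812 CPM in BcorΔE9-10 and 216610 to 229248 CPM in BcorWT. Most of this sum came from S100a8 and S100a9, both called lower. Of the list, 2 genes had a fold change above 0, Csf3r at 0.01 and the abundant Camp at 0.25, which was at an unadjusted limma p-value under 0.05 and not called by limma, edgeR or DESeq2. S100a8, S100a9, Csf3r and Camp were named after their values were seen. Ltf, the lactoferrin of secondary granules, fell by 0.81 on the log2 scale, with standard error 0.0932 and limma adjusted p = 7.34e-05. Ly6g, whose protein is part of the Gr-1 antigen that the lineage gate leaves out, fell by 0.97, and by 0.55 without BcorWT library 1. Ngp fell by 0.68, and Mmp9 by 0.71, a call that was lost without BcorWT library 1 (-0.18) or BcorΔE9-10 library 2 or 3, by DESeq2 and with total counts as scaling. Without BcorWT library 2 it was -1.25. Of 10 monocyte and macrophage markers, 7 were tested and 1, Ly6c2, was lower (-0.36). This call was lost when any 1 library other than BcorΔE9-10 library 2 was left out, with total counts as scaling (-0.22) and under the replicate block with GC correction (-0.26). Of 10 erythroid markers, 5 were tested and 1, Car1, was higher (2.46, SE 0.741). This call was lost when any 1 library other than BcorΔE9-10 library 1 was left out, with sample quality weights (2.39) and with GC correction (2.28). By edgeR 4 erythroid markers were higher, and by DESeq2 2.

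In the list named KL gate genes, in which Cd34 and Cd3e are not markers of the gate the study describes, Kit, the receptor by which KL cells are selected, had 128 and 132 counts in BcorWT and 452, 307 and 423 in BcorΔE9-10. The fitted log2 change was 1.43, with a standard error of 0.173 and limma adjusted p = 9.82e-05, so the gate marker itself was higher in each BcorΔE9-10 library. Cd34 and Itgam were not called (-0.02 and 0.37), and the lymphoid gene Cd3e, named after its values were seen, stayed near 0. The part of the Kit difference, and of the neutrophil markers, in the eosinophil genes was not tested.

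**Figure D5:**
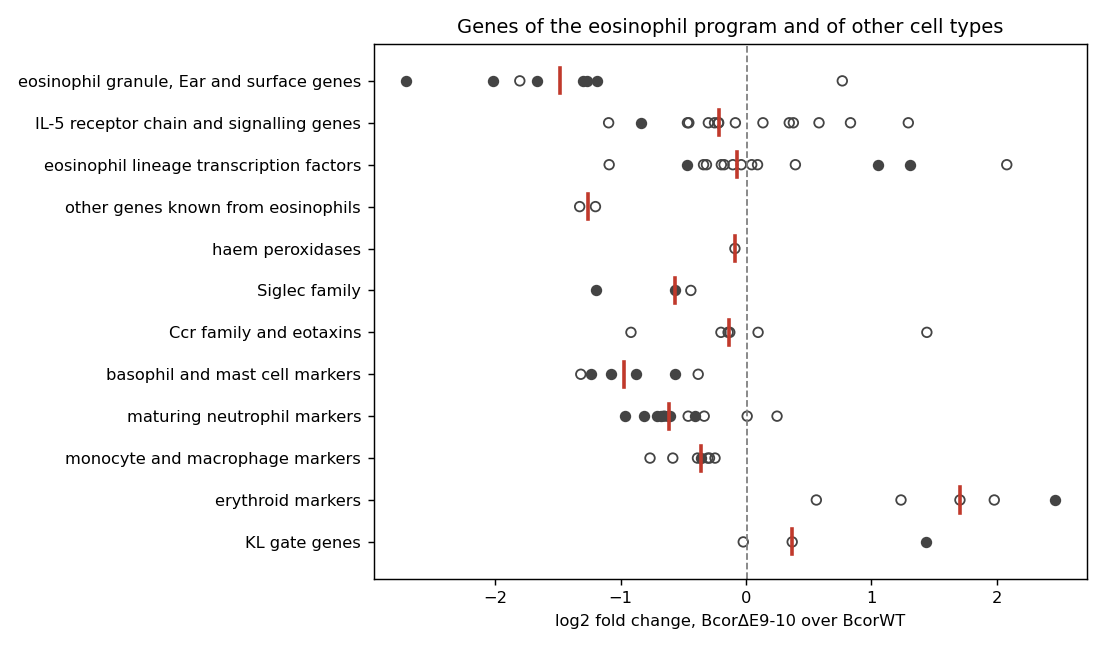
Log2 fold change of BcorΔE9-10 over BcorWT for each tested gene in the lists (points), filled where the limma adjusted p-value was under 0.05, with a red line at the median of each list. The 8 tested eosinophil genes have a median of -1.49, basophil and mast cell markers -0.98 and maturing neutrophil markers -0.62.

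Finally, the genes whose level over the 5 libraries was most like the mean log2 CPM of Epx, Prg2 and Prg3 were found among 7643 genes whose mean log2 CPM reached 3. They were Vsir, an immune checkpoint receptor (Pearson r 0.999), Il1f9, which encodes the cytokine IL-36γ (0.999), Cybb, the catalytic subunit of the phagocyte NADPH oxidase (0.998), Lamtor2, a lysosomal scaffold of mTORC1 signalling (0.998), and Slc30a9, a zinc transporter (0.998). All points share the same 5 libraries and their group difference, and with so many genes searched, high values are found among them by selection. Il1f9 had 179 and 117 counts in BcorWT and 68, 18 and 40 in BcorΔE9-10, a log2 fold change of -2.05 (SE 0.324), while that of Lamtor2 was -0.17 (SE 0.154). Likeness in pattern over 5 libraries thus went with differences of very unequal size.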

How the data were processed

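KL cells of 3 BcorΔE9-10 and 2 BcorWT samples, grouped by their titles, were profiled by QuantSeq 3′ sequencing with 75-base single-end reads. The authors deposited 1 raw count per gene and library, made by trimming with cutadapt, alignment to mm10 with HISAT2 and counting with featureCounts (Subread 1.5.0-p3, per the labels' processing notes). Settings for strand and for reads with several places are not given in the sources used here. Totals ranged from 5998924 to 8303999 counts, and errors from counting assume independent reads.

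Genes were kept with filterByExpr (minimum count 10, minimum total 15), scaled by TMM and tested two-sided with limma 3.58.1 on voom values, as the study's methods name limma, with Benjamini-Hochberg adjustment over 11766 genes and a threshold of 0.05. edgeR 4.0.16 (quasi-likelihood test), DESeq2 1.42.0, and other scaling, filters, depth, GC correction (lowess span 0.3), fits with a replicate block and fits lacking 1 library were alternatives, in R 4.3.3. The procedure was tested on simulated data. Transcript ends, coding sequences and intervals came from the GENCODE M21 annotation, and promoters from RefSeq. No protein sequence is printed.

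The 10 genes and all lists were chosen with earlier results of these data known. Named were all 10 genes, up to 4 genes per list (called ones with the largest change, then the most abundant), the 5 genes most like Epx, Prg2 and Prg3, and genes overlapping or sharing end sequence with a member. Others are marked as named after their values were seen. Replicates of 1 group were not copies of 1 library, since their counts had a chi-square per gene of 6.01 to 11.6. Some genes of the lists are not reported here.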

Additional observations from a re-analysis of the deposited data

How the results depend on the processing

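Epx, Prg2, Prg3, Ear1, Ear2 and Ear6 were lower under all 16 alternatives, with log2 fold changes of -2.10 to -1.35, -1.48 to -1.12, -1.32 to -1.03, -2.22 to -1.86, -1.46 to -1.08 and -2.94 to -2.56. Of 126 comparisons of a member between the reported fit and an alternative, 125 kept direction and side of the threshold. In the other, Siglecf passed it with total counts as scaling (0.91). That scaling shifted the median of all genes to 0.149 and gave 1210 genes higher and 197 lower (86.0% higher), against 708 and 481 (59.5%). Ear10 could not be tested with at least 10 counts in every library or after drawing down, and it was -0.99 under the replicate block. Genes called ranged from 558 to 1200 when 1 library was left out (558 without BcorWT library 1, 774 and 723 without BcorΔE9-10 library 2 and 3), against 1189 with all 5, in fits with fewer samples. A group left with 1 library was assumed to vary like the other. The replicate numbers pair samples in name only (deviations correlated at 0.06 and 0.07), and the replicate block called 1454 genes. The replicate block with GC correction called 32 of the list genes, against 20, and the cause was not tested. Few counts limit Ear10, Il5ra and Ccr3.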
